A study of Mus musculus with 34 samples.

Results

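The genes described here are the heat shock proteins and co-chaperones Hspa1a, Hspa1b, Hspa8, Hsph1, Hsp90aa1, Hspb1, Hspd1, Hspe1, Dnajb1 and Bag3, followed in mouse lung 28 days after instillation of carbon nanotube materials. The list was given by name, and each gene was read from the probe whose transcript accession maps to it, taking the brightest one where a gene had several. Of the 10 genes, 9 were found, and Hspa1b, for which no probe matched, was not analysed here. These 9 stand among 29316 genes and unnamed transcripts tested. The lung signal of all 9 stood well above background on each of the 34 arrays.

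Female C57BL/6 mice, 5 to 7 weeks old, received a single dose of 1 of 3 materials by intratracheal instillation. The groups were NRCWE-043 at 54 µg (5 lungs) and 18 µg (5 lungs), NRCWE-044 at 54 µg (5 lungs) and 18 µg (6 lungs), NRCWE-045 at 54 µg (5 lungs) and 18 µg (3 lungs), and control mice (5 lungs). The labels do not say what the control mice were given, and the title of 1 control array names NRCWE-043 at 0 µg. Each array compared lung RNA, in Cy5, with a universal RNA made from 11 mouse cell lines, in Cy3, and a log2 ratio below is lung over that RNA. A ratio can be set between lungs for 1 gene but not between genes.

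Heat shock proteins are molecular chaperones that keep other proteins folded, hold unfolding proteins in solution, or pass them on for degradation. Heat, oxidants and other insults that unfold proteins activate heat shock factor 1, which binds repeats of a short element in the promoters of these genes and raises their transcription. Hsp70 proteins (Hspa1a, inducible, and Hspa8, made constantly) bind exposed peptide stretches, Hsp110 (Hsph1) exchanges their nucleotide, and Hsp90 (Hsp90aa1) completes the folding of client kinases and receptors. Hspb1 is a small heat shock protein that holds unfolded proteins without ATP, while Hspd1 and its lid Hspe1 form the chaperonin of the mitochondrial matrix. Dnajb1 is a J-domain co-chaperone that delivers substrates to Hsp70, and Bag3 couples Hsp70 to small heat shock proteins and to selective autophagy. In lung these proteins are known mostly from acute injury, fever and oxidant exposure.

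The arrays shared a clear lung signature. All 8 lung markers were above background on 34 of 34 arrays, and the surfactant gene Sftpc had a median log2 ratio of 8.25 over the cell line RNA. Arrays of a group correlated at 0.908 to 0.970, none was a copy of another, and no spot was saturated. They came from 6 slides that were scanned on different days, and 4 of the slides carried controls. In whole lung RNA, fewer cells of a type and less RNA per cell cannot be told apart.

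Promoter windows are shown because the genes below vary together and share a regulator. RefSeq promoter windows (build GRCm38.p6, 250 bases before to 50 after a start site) were listed for 8 of the 10 genes, Hspa1b included. The motifs searched, on both strands, were the 8-base parts of the heat shock element, TTCNNGAA and GAANNTTC, and the 13-base motif in which the first runs into the second through a shared GAA. Capitals mark the 13-base motif where a window holds it, and otherwise the 8-base part. The windows printed were all among those that hold one of these.

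Hspa1a, chr17:34972107-34972406, minus strand: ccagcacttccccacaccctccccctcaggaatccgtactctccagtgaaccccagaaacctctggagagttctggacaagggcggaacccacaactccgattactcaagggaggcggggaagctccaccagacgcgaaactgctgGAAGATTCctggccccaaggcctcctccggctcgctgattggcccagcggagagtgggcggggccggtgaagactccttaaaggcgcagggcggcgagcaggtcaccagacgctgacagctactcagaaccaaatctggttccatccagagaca
Hspb1, chr5:135887669-135887968, plus strand: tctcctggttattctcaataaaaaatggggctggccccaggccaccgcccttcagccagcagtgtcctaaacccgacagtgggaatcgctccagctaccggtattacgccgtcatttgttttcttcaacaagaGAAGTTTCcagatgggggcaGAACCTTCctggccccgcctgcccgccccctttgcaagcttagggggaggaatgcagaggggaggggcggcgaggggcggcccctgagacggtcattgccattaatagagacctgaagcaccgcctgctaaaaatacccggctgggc
Hsph1, chr5:149636266-149636565, minus strand: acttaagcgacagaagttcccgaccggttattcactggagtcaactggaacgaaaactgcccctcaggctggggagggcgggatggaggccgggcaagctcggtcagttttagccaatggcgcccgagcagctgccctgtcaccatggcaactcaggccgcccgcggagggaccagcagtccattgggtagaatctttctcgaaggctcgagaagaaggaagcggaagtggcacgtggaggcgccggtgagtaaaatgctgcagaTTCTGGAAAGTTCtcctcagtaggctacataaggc
Hspe1, chr1:55087898-55088197, plus strand: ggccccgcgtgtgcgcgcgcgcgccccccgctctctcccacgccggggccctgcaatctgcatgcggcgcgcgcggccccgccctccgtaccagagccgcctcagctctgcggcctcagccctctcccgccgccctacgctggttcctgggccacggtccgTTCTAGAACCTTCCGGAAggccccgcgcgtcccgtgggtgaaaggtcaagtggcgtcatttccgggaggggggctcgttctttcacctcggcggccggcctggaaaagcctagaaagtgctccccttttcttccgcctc

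The 13-base motif lay in windows of 3 of the 8 genes, Hsph1, Hspd1 and Hspe1, against 0.662% of 27025 genes with a window. Of 27 other cytosolic chaperones and heat shock factor 1 targets with a window, 2 held it. Hspd1 and Hspe1 are divergent neighbours: 285 bases of the Hspe1 window are the Hspd1 window read from the other strand, so their matches are the same stretch of DNA. Its 2 overlapping matches begin at bases -89 and -84 from the Hspe1 start site. In the Hsph1 window shown the match lies after the start site and begins at base 16 counted from that site. The shorter part GAANNTTC was found in 7 of the 8 genes, against 9.04% of all genes and 8 of the 27 other chaperones. It lay at base -104 of Hspa1a, bases -117 and -97 of Hspb1 and base 43 of Bag3. The 7 include Hspa1a with Hspa1b and Hspd1 with Hspe1, pairs whose matches lie in the same or nearly the same sequence. TTCNNGAA was found in 3 of the 8, against 9.6% of all genes and 4 of the 27. Neither motif was found in the 2 Dnajb1 windows, which says only that these letters are not there. Hspa1a and Hspa1b windows were identical at 296 of 300 bases. Their coding sequences are also near copies, so the Hspa1a probe may read RNA of both, which was not tested.

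Hspa1a was the member with the widest spread between lungs. In 54 µg NRCWE-043 lungs its log2 ratios were 0.87, 1.52, 1.75, 1.98 and -0.25, and in 18 µg NRCWE-043 lungs 1.32, 0.43, 1.31, 1.42 and 0.86. NRCWE-044 lungs had 0.69, 0.52, 0.52, 0.02 and 0.22 at 54 µg, and ran from -0.31 over a median of 0.79 to 1.39 at 18 µg. NRCWE-045 lungs had 0.20, 0.54, 0.39, 0.44 and 0.21 at 54 µg and 0.43, 0.57 and 0.33 at 18 µg, against 0.48, 2.31, 1.32, 0.59 and 1.17 in control lungs. The 8 NRCWE-045 lungs formed a narrow low band, and the 54 µg NRCWE-044 lungs, from 0.02 to 0.69, were also low. NRCWE-043, 18 µg NRCWE-044 and control lungs each covered both low and high values. The SD of Hspa1a over the 34 lungs, 0.62, exceeded that of 98.8% of everything tested. Hspa1a was also by far the dimmest member. Its mean Cy5 intensity was 388, against 3768 (Bag3) to 49985 (Hspa8) for the others, where array medians ran from 102 to 166.

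Hspa8, the constitutive Hsp70, showed a similar layout on a smaller scale. Its log2 ratios were 0.49, 0.59, 0.97, 1.15 and -0.27 in 54 µg NRCWE-043 lungs and 0.59, 0.46, 0.53, 0.41 and 0.27 in 18 µg NRCWE-043 lungs. They were 0.16, 0.41, 0.29, 0.27 and 0.41 in 54 µg NRCWE-044 lungs and between -0.23 and 0.61, median 0.38, in 18 µg NRCWE-044 lungs. In NRCWE-045 lungs they were -0.05, 0.15, 0.05, 0.12 and 0.02 at 54 µg and 0.30, -0.04 and 0.34 at 18 µg, against 0.20, 0.70, 0.69, -0.07 and 0.22 in controls. The highest and the lowest Hspa8 of all 34 lungs, 1.15 and -0.27, both came from the 54 µg NRCWE-043 group. The 5 lungs with 54 µg NRCWE-044 were all above the 5 with 54 µg NRCWE-045, a separation seen upward in 0.218% of everything tested, and the fitted difference was 0.25 ± 0.18 (SE; limma, adjusted p = 1.0).

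Group means of Hsph1 were highest at 54 µg NRCWE-043 (0.37) and lowest at 54 µg NRCWE-045 (-0.52), with controls at -0.17. The 54 µg NRCWE-043 lungs had log2 ratios of 0.26, 0.38, 0.86, 1.00 and -0.64, and the 18 µg NRCWE-043 lungs 0.47, -0.25, 0.12, 0.33 and 0.09. NRCWE-044 lungs had -0.53, -0.19, 0.28, -0.38 and 0.11 at 54 µg and lay between -1.08 and 0.61, median -0.04, at 18 µg. NRCWE-045 lungs had -0.57, -0.45, -0.59, -0.46 and -0.55 at 54 µg and -0.09, -0.44 and -0.12 at 18 µg, against -0.74, 0.47, 0.29, -0.70 and -0.16 in controls. The 5 lungs at 54 µg NRCWE-045 had an SD of 0.06, the smallest of any Hsph1 group, and lay below all 3 lungs at 18 µg. Such a separation downward was seen in 1.03% of everything tested, and the difference of -0.31 ± 0.31 (SE) had an adjusted p of 1.0 (limma).

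Hsp90aa1, the inducible cytosolic Hsp90, had log2 ratios of 0.22, 0.06, 0.87, 1.22 and -0.15 in 54 µg NRCWE-043 lungs and 0.41, 0.10, 0.18, 0.29 and 0.12 in 18 µg NRCWE-043 lungs. In NRCWE-044 lungs they were -0.25, -0.05, -0.42, 0.18 and 0.50 at 54 µg and between -0.27 and 0.33, median 0.03, at 18 µg. NRCWE-045 lungs had -0.10, -0.12, -0.29, 0.08 and -0.28 at 54 µg and 0.05, -0.18 and 0.19 at 18 µg, against -0.05, 0.45, 0.35, -0.30 and 0.26 in controls. The 2 highest of the 34 lungs, at 0.87 and 1.22, belonged to the 54 µg NRCWE-043 group, and the groups overlapped.

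Hspb1, the small heat shock protein, had log2 ratios of 2.30, 1.69, 2.12, 2.40 and 1.79 in 54 µg NRCWE-043 lungs and 2.14, 1.82, 1.71, 1.78 and 2.17 in 18 µg NRCWE-043 lungs. NRCWE-044 lungs had 1.94, 1.5, 2.0, 1.42 and 2.11 at 54 µg and lay between 1.43 and 2.18, median 1.90, at 18 µg. NRCWE-045 lungs had 1.83, 1.38, 1.52, 1.56 and 1.60 at 54 µg and 2.12, 1.49 and 1.60 at 18 µg, against 1.49, 2.51, 2.05, 1.67 and 2.04 in controls. The highest value was that of control 2, which also held the highest Hspa1a.

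The mitochondrial pair varied less between groups. Hspd1 averaged -1.39 ± 0.38 in 54 µg NRCWE-043 lungs, -1.57 ± 0.11 in 54 µg NRCWE-044 lungs, -1.62 ± 0.23 in 54 µg NRCWE-045 lungs and -1.51 ± 0.17 in controls (SD, n = 5 each). Hspe1 averaged -1.97 ± 0.28, -2.16 ± 0.30 and -2.22 ± 0.25 in the same 3 treated groups and -2.06 ± 0.25 in controls. Group means at 18 µg lay between -1.58 and -1.39 for Hspd1 and between -2.21 and -2.10 for Hspe1, inside the spread of the other groups. The 6 lungs at 18 µg NRCWE-044 were below the 3 at 18 µg NRCWE-045 for Hspd1, a separation seen downward in 1.7% of everything tested, with a fitted difference of -0.20 ± 0.14 (SE; limma, adjusted p = 0.916).

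Of the co-chaperones, Dnajb1 had log2 ratios of 0.19, 0.89, 0.85, 1.33 and -0.26 in 54 µg NRCWE-043 lungs and 0.41, 0.27, 0.95, 0.60 and 0.01 in 18 µg NRCWE-043 lungs. In NRCWE-044 lungs it had 0.32, 0.17, 0.01, 0.19 and -0.01 at 54 µg and lay between 0.00 and 0.85, median 0.15, at 18 µg. NRCWE-045 lungs had 0.19, -0.07, 0.03, 0.40 and 0.23 at 54 µg and 0.06, -0.10 and 0.80 at 18 µg, against 0.67, 1.16, 0.63, 0.38 and 0.11 in controls. A single treated lung, at 1.33, was above the highest control lung, at 1.16. Bag3 had the smallest spread, an SD above that of 51.6% of everything tested. Its group means were 0.56 ± 0.27 at 54 µg NRCWE-043, 0.33 ± 0.16 at 54 µg NRCWE-044, 0.38 ± 0.10 at 54 µg NRCWE-045 and 0.47 ± 0.15 in controls (SD, n = 5 each).

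**Figure D1:**
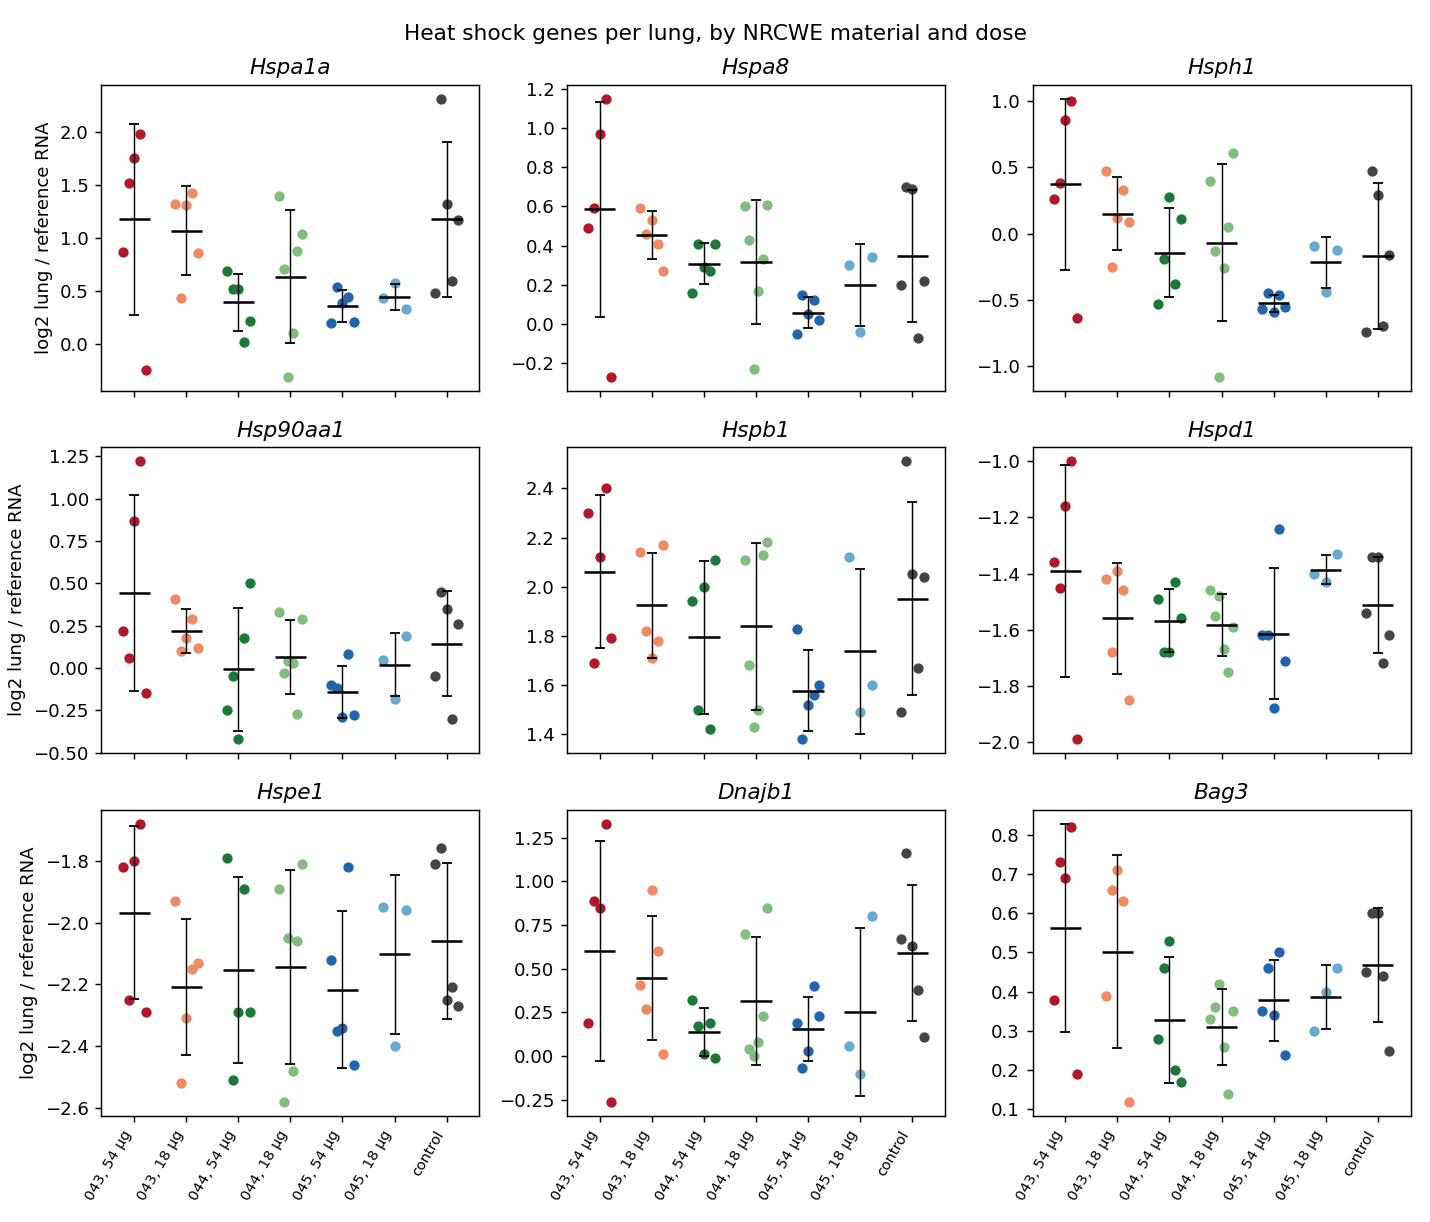
Log2 ratio of lung over cell line RNA (vertical axes) of the 9 genes in each of 34 lungs, by group (horizontal axes), with group means and SD. For Hspa1a, Hspa8, Hsph1 and Dnajb1 the 54 µg NRCWE-043 group spans nearly the whole range, and for Hspa1a the control group reaches 2.31.

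Set against control lungs, no member passed the test at any dose of any material. This comparison asks whether the heat shock genes differed from controls at day 28, the only day measured. The count was 0 of 9 in each of the 6 comparisons (limma, Benjamini-Hochberg adjusted p under 0.05 over all 29316), and the share called over everything tested was 0% in each. At an unadjusted p under 0.05 the counts were 0 of 9 for 54 and for 18 µg NRCWE-043 (5.63% and 4.35% of everything tested), 1 and 0 for NRCWE-044 (5.84% and 3.13%), and 2 and 0 for NRCWE-045 (3.92% and 7.92%). With slide as a fixed block the NRCWE-044 count at 54 µg was 3 of 9 (10.5% of everything tested). Without control 2 it was 0 at 54 µg of NRCWE-044 (4.5%) and 0 at 54 µg of NRCWE-045 (2.66%), and without lung 5 of 54 µg NRCWE-043 it was 4 of 9 for that group (5.06%). The 6 comparisons share the same 5 controls.

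At 54 µg the direction of the values differed between materials. At 54 µg NRCWE-043 all 9 members were above the control mean, with a median log2 difference of 0.11 (0.27 without lung 5 and 0.02 without lung 4), and Hsph1 at 0.54 ± 0.27 (SE) had an adjusted p of 0.896. At 54 µg NRCWE-044, 8 of 9 were below controls, median -0.14 (-0.02 without control 2). At 54 µg NRCWE-045 all 9 were below, median -0.29. The median over everything tested was -0.01, 0.00 and 0.00 in these 3 comparisons. At 18 µg the members' median against control was below 0 for each material. It was -0.03 for NRCWE-043, -0.08 for NRCWE-044 and -0.13 for NRCWE-045. The NRCWE-043 median at 18 µg changed sign in 5 of the 21 alternatives run for it.

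Hspa1a held the members' biggest differences from control. It averaged 0.39 ± 0.27 at 54 µg NRCWE-044 and 1.17 ± 0.73 in controls (SD, n = 5 each), a log2 difference of -0.78 ± 0.33 (SE; limma, adjusted p = 0.780). At 54 µg NRCWE-045 it averaged 0.36 ± 0.15 and the difference was -0.82 ± 0.33 (limma, adjusted p = 1.0). Without control 2, the control with 2.31, these became -0.50 and -0.53. Hspb1 at 54 µg NRCWE-045 differed from control by -0.37 ± 0.18 (limma, adjusted p = 1.0), and Dnajb1 by -0.43 ± 0.23. Without control 2 these were -0.23 and -0.29. At 54 µg NRCWE-043 Hspa1a matched the control mean, with a difference of 0.00 and a 95% interval of -0.67 to 0.68. It was 0.36 without lung 5 of that group and -0.20 without lung 4.

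Controls shared a slide with treated lungs on 4 slides. Each value below sets 1 treated lung against the controls of its slide. Within them, the median difference of the 9 members at 54 µg NRCWE-045 was -0.33, -0.53, -0.13 and -0.21 on slides 1, 2, 3 and 5. At 54 µg NRCWE-044 it was -0.28, -0.40, 0.04 and 0.06 on the same slides. At 54 µg NRCWE-043 it was 0.02, -0.00 and 0.56 on slides 1, 2 and 3. Hspa1a was below the mean of the controls on the slide in 4 of 4 slides for both NRCWE-044 and NRCWE-045 at 54 µg. On slide 1, which held 2 controls at 0.48 and 2.31, the 54 µg NRCWE-044 lung, at 0.69, was above 1 of them.

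No member passed the test between the doses of 1 material. Comparing 54 with 18 µg, 0 of 9 members were called for each material (0% of everything tested in each), and none had an unadjusted p under 0.05 (3.13% of everything tested for NRCWE-043, 5.24% for NRCWE-044 and 2.36% for NRCWE-045). All 9 were above 0 for NRCWE-043, by 0.06 to 0.24, and all 9 below 0 for NRCWE-045, by -0.01 to -0.31. For NRCWE-044, 7 were below 0. Within slides, with 1 or 2 lungs per dose, these directions varied. For NRCWE-043, 3, 7, 9 and 1 of 9 members were above 0 on slides 1, 2, 3 and 6. The medians there were -0.10, 0.10, 0.34 and -0.27. For NRCWE-045, 2, 5 and 4 of 9 were above 0 on slides 1, 2 and 4. Without lung 4 of the 54 µg NRCWE-043 group, the NRCWE-043 median of 0.15 became 0.03, and Hspa1a (-0.09), Hspa8 (-0.01), Dnajb1 (-0.03) and Bag3 (-0.00) were no longer above 0. Without lung 5 of that group the median became 0.35. The test of whether the dose difference itself differed between materials called 0 of 9 for each pair of materials, and its smallest p was 0.0552, for Hspd1 between NRCWE-043 and NRCWE-045 (limma, adjusted p = 0.999).

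**Figure D2:**
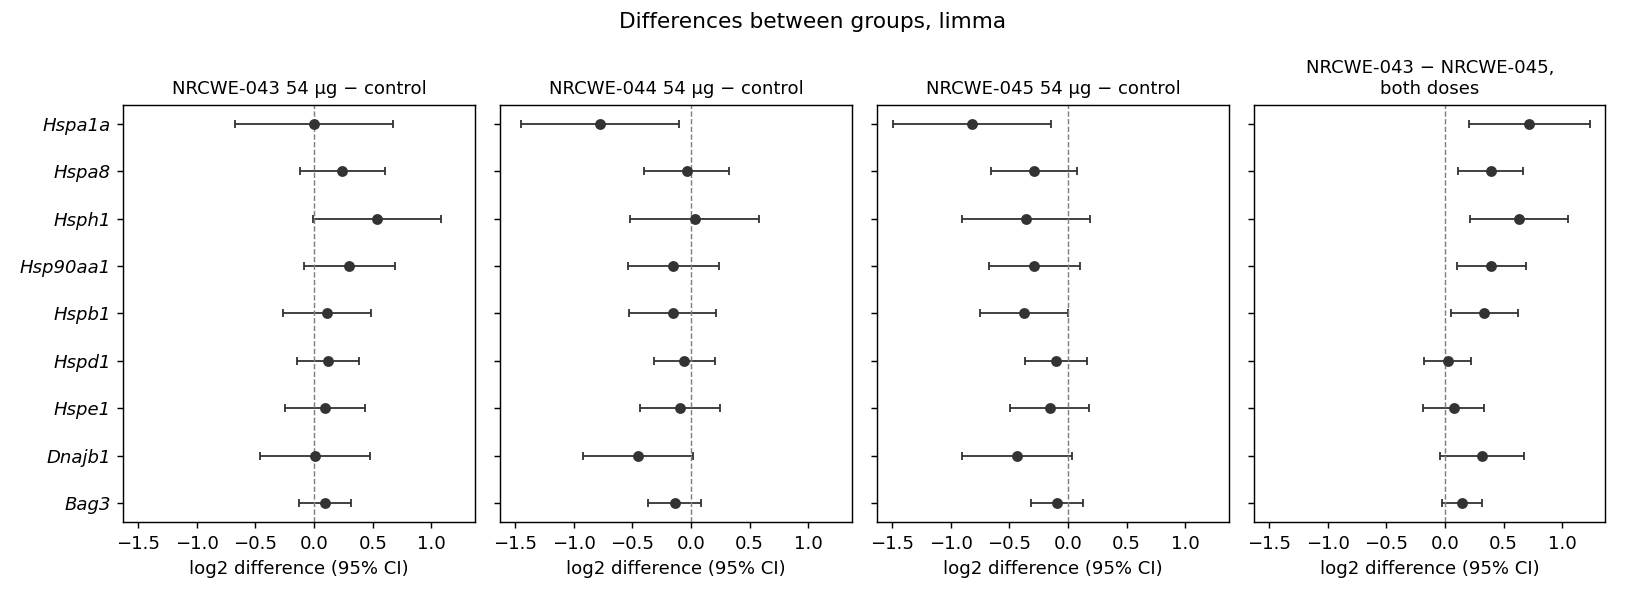
Log2 differences (horizontal axes) of the 9 genes with 95% intervals, not adjusted for the number of tests, for 54 µg of each material against control and for NRCWE-043 against NRCWE-045 over both doses. In the last panel all 9 points lie above 0, and in the panels against control the intervals that leave out 0 are those of Hspa1a for NRCWE-044 and NRCWE-045 and of Hspb1 for NRCWE-045.

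The members differed most between the materials NRCWE-043 and NRCWE-045, without passing the adjusted test. Averaged over both doses, all 9 were higher in the 10 NRCWE-043 lungs than in the 8 NRCWE-045 lungs, with a median log2 difference of 0.34 against -0.01 over everything tested. None of 9 was called, where 1.81% of everything tested was. At an unadjusted p under 0.05 there were 5 of 9, all higher in NRCWE-043, against 12.3% of everything tested, 3.87% higher and 8.39% lower.

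Those 5 were the Hsp70, Hsp110, Hsp90 and small heat shock protein genes. Averages here are means of both dose means, each dose counted equally whatever its number of lungs. Hspa1a averaged 1.12 in NRCWE-043 lungs and 0.40 in NRCWE-045 lungs, a difference of 0.72 ± 0.25 (SE; limma, adjusted p = 0.169). For Hsph1 the averages were 0.26 and -0.37, a difference of 0.63 ± 0.20 (adjusted p = 0.121). Hsp90aa1 differed by 0.40 ± 0.15 (adjusted p = 0.195), Hspa8 by 0.39 ± 0.14 (adjusted p = 0.165) and Hspb1 by 0.34 ± 0.14 (adjusted p = 0.289), all by limma. Of the NRCWE-043 lungs, 8 of 10 were above every NRCWE-045 lung for Hspa1a, Hspa8 and Hsph1, and 1 of 10 was below every one. Dnajb1 (0.32), Bag3 (0.15), Hspe1 (0.07) and Hspd1 (0.02) had smaller differences in the same direction.

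At 54 µg alone the median difference was 0.48, and Hsph1 differed by 0.90 ± 0.27 (SE; limma, adjusted p = 0.689). There 0 of 9 were called (0.00341% of everything tested) and 5 of 9 had an unadjusted p under 0.05 (5.1%). At 18 µg the median was 0.19, 7 of 9 were above 0, 0 were called (0.43%) and 0 had an unadjusted p under 0.05 (10.7%). On each of the 4 slides that held both materials at 54 µg, 1 lung of each was set against the other. There 9 of 9 members were higher for NRCWE-043 on each slide, with medians of 0.32, 0.31, 0.81 and 0.93. The members vary together from lung to lung, so the 9 are not separate observations. Lung 5 of the 54 µg NRCWE-043 group, which was lowest in several members, lay on slide 6, which held no NRCWE-045 lung.

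Calls in this comparison depended on the slide term and on 1 lung. At an unadjusted p under 0.05, the fit with slide as a fixed block had 7 of 9 over both doses (14.9% of everything tested) and 7 of 9 at 54 µg (9.05%). With slide as a fixed block, Hsp90aa1 rose in NRCWE-043 against NRCWE-045 by 0.52 ± 0.14 (limma, adjusted p = 0.0395), the only member called, where 2.88% of everything tested was. With slide as a random block it rose by 0.47 ± 0.13 (adjusted p = 0.0420, 3.38% called). Without lung 5 of the 54 µg NRCWE-043 group, which held the lowest Hspa8, Hspd1 and Dnajb1 of all, 3 members were called (1.78% of everything tested): Hspa8 at 0.50 ± 0.11 (adjusted p = 0.0182), Hspa1a at 0.90 ± 0.22 (adjusted p = 0.0314) and Hsph1 at 0.76 ± 0.19 (adjusted p = 0.0324), all by limma. Leaving out lung 4 of that group as well, which held the highest value of 7 members, 1 was called, Hspa8 at 0.44 ± 0.11 (limma, adjusted p = 0.0363, 2.03% called).

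NRCWE-043 lungs were also above NRCWE-044 lungs over both doses for 9 of 9 members, by a median of 0.21. None was called (0.259% of everything tested), and 3 of 9 had an unadjusted p under 0.05 (7.17%): Hspa1a at 0.61 ± 0.23, Hsp90aa1 at 0.30 ± 0.13 and Bag3 at 0.21 ± 0.08 (SE; limma, adjusted p = 0.463, 0.597 and 0.402). At 54 µg the counts were 0 called (0%) and 3 at an unadjusted p under 0.05 (4.79%), and at 18 µg 0 (0.0102%) and 0 (5.56%). NRCWE-044 and NRCWE-045 differed for 0 of 9 members over both doses (0.293% of everything tested), at 54 µg (0%) and at 18 µg (0%), with 0 of 9 at an unadjusted p under 0.05 in each (6.63%, 3.6% and 6.16%). Their 95% interval for Hspa1a over both doses was -0.39 to 0.62. These comparisons share lungs with each other.

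Other gene groups moved with the contrast of NRCWE-043 over NRCWE-045, averaged over both doses, where 1.81% of everything tested was called. Of 15 core clock genes measured, 5 fell (Hlf, Tef, Nr1d2, Per3 and Dbp) and 1 rose (Arntl) in NRCWE-043 (limma, adjusted p under 0.05), Dbp and Arntl being named after their values were seen, with Hlf at -0.91 ± 0.14 (adjusted p = 0.00265) and Tef at -1.12 ± 0.21 (adjusted p = 0.00425). Hlf and Tef encode output transcription factors of the circadian clock. Liver markers were lower in NRCWE-043 for 8 of 8, of which 4 fell (Apoa2, Serpina1a, Alb and Ahsg). Their mean, as a log2 deviation from the median lung, ran from -0.52 to -0.32 at 54 µg NRCWE-043 and from -0.31 to 1.59 at 54 µg NRCWE-045. At 18 µg it ran from -0.54 to -0.23 in NRCWE-043 lungs and from 0.32 to 3.96 in NRCWE-045 lungs. Fat markers were lower for 8 of 8 with 0 called, and lung markers had a median of -0.06 with 0 of 8 called. The part of these in the members' difference was not tested.

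Across the 7 groups, 0 of 9 members passed the F test (limma, adjusted; 0.0443% of everything tested), and 1, Hspa1a, had an unadjusted p under 0.05 (limma, adjusted p = 0.691; 7.02% of everything tested). Group accounted for 0.325 of the variance of Hspa1a, 0.303 of Hsph1 and 0.280 of Hsp90aa1, against a median of 0.161 over everything tested. Slide accounted for 0.114, 0.0356 and 0.106 of the same 3, against a median of 0.346. Hspa8 (group 0.260, slide 0.0495) and Dnajb1 (0.213 and 0.120) also had the larger share with group. For the other 4 members slide held the larger share, with 0.724 of the variance of Hspe1, 0.507 of Bag3, 0.472 of Hspd1 and 0.294 of Hspb1.

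From lung to lung the members varied together. All 36 pairs of members had a Pearson r above 0 over the 34 lungs, with a median of 0.595. Of these, 33 had an adjusted p under 0.05 (100000 permutations of lungs across groups and slides, Benjamini-Hochberg over the 36). The strongest pair was Hspa8 with Hsph1, at r = 0.916 and Spearman's rho = 0.913, each with p = 1e-05, the smallest that the permutations can give (adjusted p = 4e-05 and 6e-05). It was 0.884 without the 2 lungs farthest from the median and 0.943 after group and slide means were removed. Within slide 1 it was 0.927 and within slide 2 it was 0.874 (8 lungs each), and the slides were otherwise too small.

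Hspa1a followed Hspa8 (r = 0.817) and Hsph1 (r = 0.812), and Hspa8 followed Hsp90aa1 (r = 0.793). The mitochondrial pair, Hspd1 with Hspe1, had r = 0.587, which was 0.876 after group and slide means were removed. The weakest pair was Hspb1 with Bag3, at 0.078. Without the 2 lungs farthest from the median of the first gene of a pair, 34 of 36 pairs were above 0: Hspb1 with Bag3 had -0.152 and Hspe1 with Bag3 -0.013, while Hspb1 with Dnajb1 had 0.151, against 0.387 over all lungs. Within slides 1 and 2, 36 of 36 pairs were above 0 in each, with medians of 0.628 and 0.669. The values of 1 lung share an RNA sample and an array, and their part in these correlations was not tested.

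**Figure D3:**
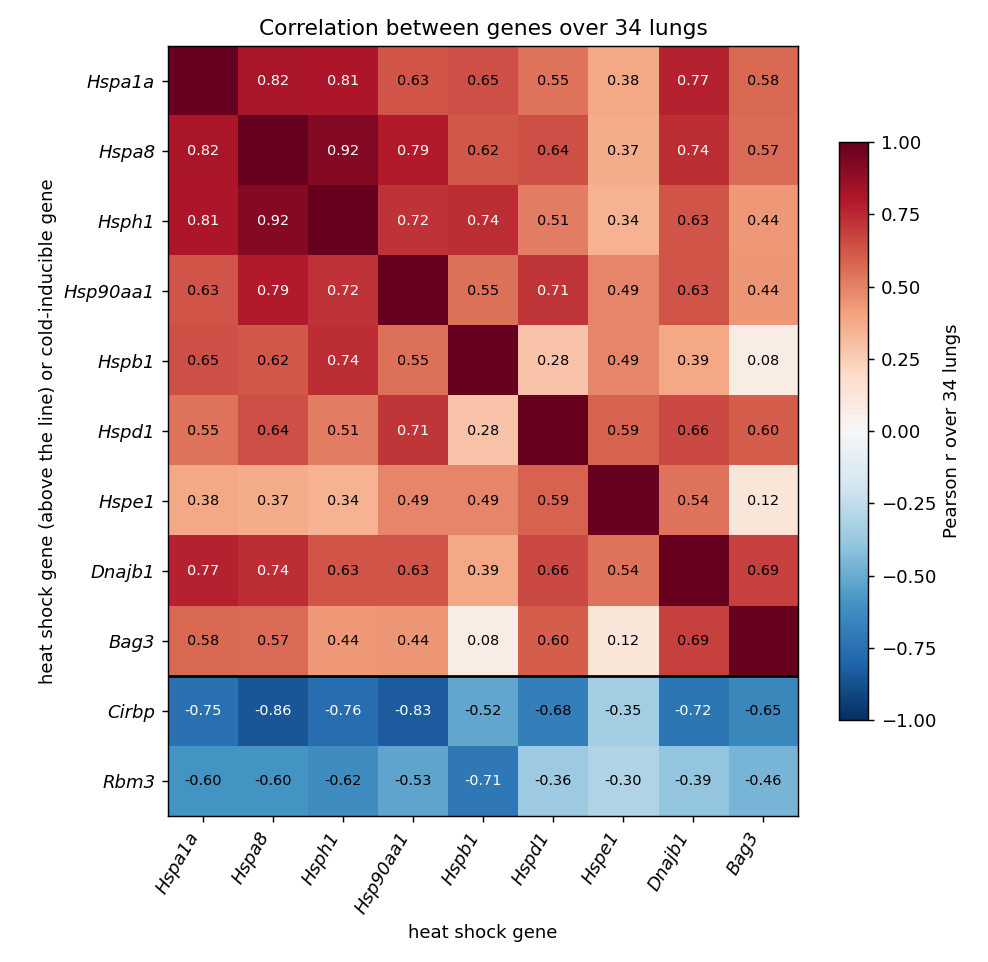
Pearson r over 34 lungs between the 9 heat shock genes, and between them and the cold-inducible genes Cirbp and Rbm3 (below the line). All 36 pairs of heat shock genes are above 0, and all 18 values below the line are below 0.

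As a score, each member was expressed as its deviation from its mean in SD units and the 9 were averaged. Lungs 4 and 3 of the 54 µg NRCWE-043 group were highest, at 2.31 and 1.60, followed by control 2 at 1.48. Lung 5 of the 54 µg NRCWE-043 group was lowest, at -1.27, so the highest and lowest of the 34 received the same dose of the same material. Cardiac muscle markers lay at 1.17, -1.02 and -1.07 from the median lung in lungs 4, 3 and 5 of that group (mean of 10 markers, log2). Their median r with the score was 0.11.

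Of 30 other cytosolic chaperones and heat shock factor 1 targets measured, the gene most like the score was Dnaja1, a J-domain co-chaperone, with r = 0.860 over the 34 lungs. It led all named genes, ahead of Mkks (0.788), Hspa4l (0.782), P4ha1 (0.778), Ahsa1 (0.769), Creld2 (0.758), Dedd2 (0.735) and Hspa5 (0.718). Hspa4l is an Hsp110 relative, Ahsa1 stimulates the ATPase of Hsp90, and Hspa5 is the Hsp70 of the endoplasmic reticulum. With slide means removed the 8 were Dnaja1 (0.887), Mkks (0.870), Stip1 (0.861), Hsp90ab1 (0.859), Cacybp (0.849), Ahsa1 (0.849), Chordc1 (0.839) and Fkbp4 (0.836), among them several Hsp90 partners. With slide means left in, the median r was 0.29 over the 30 cytosolic chaperones and 0.40 over 19 endoplasmic reticulum chaperones. It was 0.04 over 8 subunits of the cytosolic chaperonin, 0.05 over 9 mitochondrial chaperones and -0.01 over all named genes. Heat shock factors and their regulators had a median of 0.02. Removing slide means moved the chaperonin subunits from between -0.04 (Cct2) and 0.30 (Cct5) to between -0.02 (Cct2) and 0.61 (Cct7).

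Cirbp, the cold-inducible RNA-binding protein, ran opposite to the members. It had the lowest r with the score of all named genes, -0.866. In 54 µg NRCWE-043 lungs its log2 ratios were 0.19, 0.35, -0.28, -0.77 and 0.79, lowest in the lung with the highest Hspa8 and highest in the lung with the lowest. They were 0.59, 0.31, 0.49, 0.53 and 0.22 in 54 µg NRCWE-044 lungs and 0.42, 0.41, 0.34, 0.23 and 0.73 in 54 µg NRCWE-045 lungs, against 0.26, -0.10, -0.34, 0.69 and 0.15 in controls. Cirbp correlated with Hspa8 at r = -0.858 and rho = -0.797 (permutation p = 1e-05 for each, the smallest possible, adjusted over 18 pairs 4.5e-05 and 9e-05). That r was -0.805 without the 2 farthest lungs, -0.874 after group and slide means were removed, and -0.782 and -0.714 within slides 1 and 2. The other members had r between -0.835 (Hsp90aa1) and -0.348 (Hspe1). The permutations moved lungs across groups and slides, and the adjustment covered 18 pairs, not all named genes. Because the gene lists were chosen with earlier results of these data known, these p-values are no independent support. Rbm3, the other cold-inducible gene, had its strongest r with Hspb1, at -0.713. Neither passed the test against controls at 54 µg: Cirbp differed by -0.08, 0.29 and 0.29 at 54 µg NRCWE-043, NRCWE-044 and NRCWE-045, each ± 0.19 (SE).

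**Figure D4:**
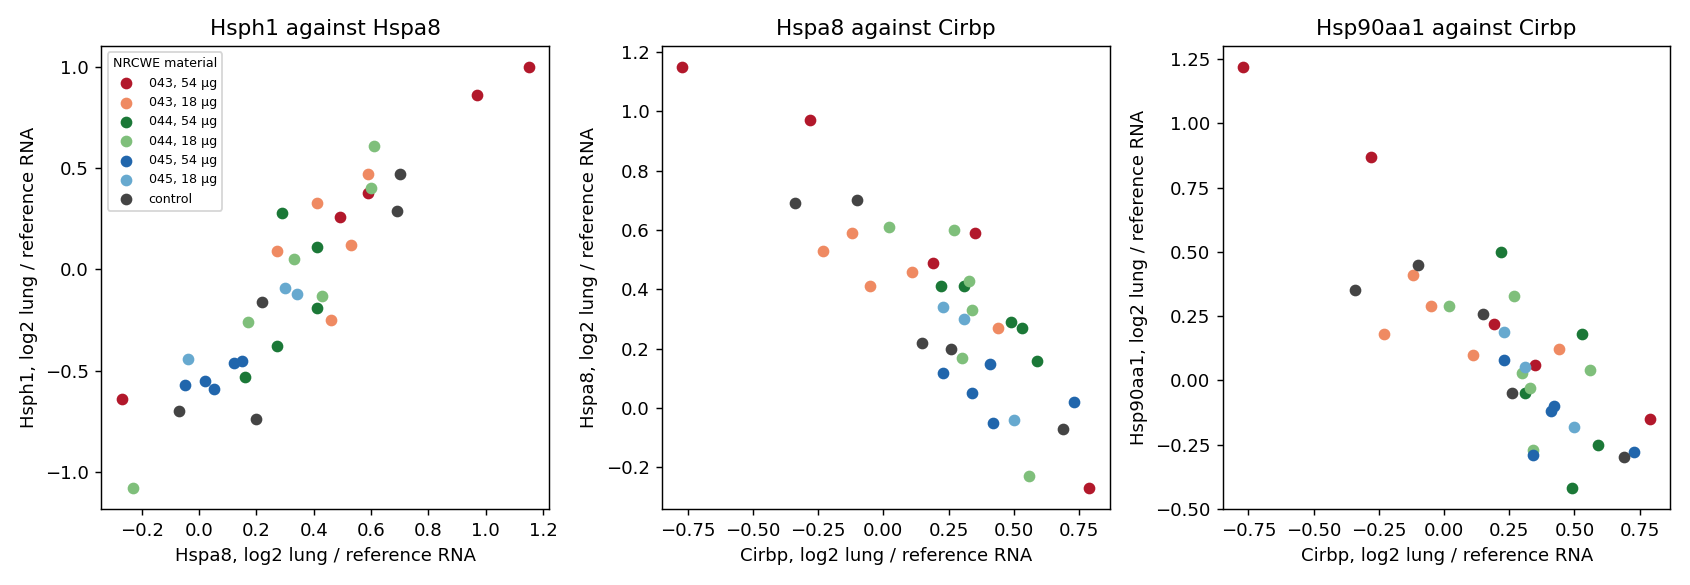
Log2 ratios of lung over cell line RNA, 1 point per lung, coloured by group. Hsph1 (vertical axis) is drawn against Hspa8 (horizontal axis). Hspa8 and Hsp90aa1 (vertical axes) are drawn against Cirbp (horizontal axes). Hsph1 is higher where Hspa8 is higher (r = 0.916). Hspa8 and Hsp90aa1 are lower where Cirbp is higher (r = -0.858 and -0.835). Lungs 4 and 5 of the 54 µg NRCWE-043 group hold the highest and the lowest Hspa8.

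Against controls, no gene of the wider chaperone lists passed the test. Of the 30 other cytosolic chaperones, 0 were called at 54 µg of each material, with medians of 0.06 for NRCWE-043, -0.05 for NRCWE-044 and -0.06 for NRCWE-045. At an unadjusted p under 0.05 there was 1 higher for NRCWE-043, where 5.63% of everything tested passed in either direction (Ptges3, the Hsp90 co-chaperone p23, 0.28 ± 0.12), 1 higher and 3 lower for NRCWE-044, against 5.84% (Hspa2 0.38 ± 0.15, Dnaja1 -0.54 ± 0.21, Ahsa2 -0.22 ± 0.09 and Cdc37 -0.18 ± 0.09) and 3 lower for NRCWE-045, against 3.92% (Dnaja1 -0.48 ± 0.21, Ahsa2 -0.26 ± 0.09, Hsp90ab1 -0.33 ± 0.16). Hsf1 itself differed by 0.04, 0.09 and -0.05 at 54 µg NRCWE-043, NRCWE-044 and NRCWE-045. Of the 5 heat shock factors and regulators, Hsbp1 had the smallest p in each of these comparisons. It was lower by -0.24, -0.23 and -0.20, each ± 0.09 (SE; limma, unadjusted p = 0.0095, 0.011 and 0.027), and was not called.

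Over both doses, NRCWE-043 against NRCWE-045 had 22 of the 30 above 0, a median of 0.10 and 0 called. In this comparison 1.81% of everything tested was called. The closest were Hsp90ab1, the constitutive Hsp90, at 0.44 ± 0.12 (limma, adjusted p = 0.0501) and Stip1, the adaptor between Hsp70 and Hsp90, at 0.54 ± 0.15 (adjusted p = 0.0523). Fkbp4 (0.52 ± 0.15) and Cacybp (0.37 ± 0.12), both Hsp90 partners, followed. Of 19 endoplasmic reticulum chaperones and stress genes, 17 were above 0, with a median of 0.20, and 2 rose: Sdf2l1, a partner of Hspa5, by 0.51 ± 0.11 (limma, adjusted p = 0.0141) and Serpinh1, the collagen chaperone, by 0.52 ± 0.12 (adjusted p = 0.0142). The 8 subunits of the cytosolic chaperonin had a median of 0.12 and the 9 mitochondrial chaperones -0.03, with 0 called in both. Hsf1 differed by 0.15 ± 0.10.

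Hsph1, Hspa8 and Hspe1 had other probes. A second Hsph1 probe correlated with the one used at r = 0.924 over the arrays and differed by 0.57 ± 0.21 (SE) between NRCWE-043 and NRCWE-045 over both doses. For Hspa8, 2 more probes correlated at 0.925 and 0.561 and differed by 0.49 ± 0.15 and 0.47 ± 0.21. The probe at 0.561 went the other way between the doses of NRCWE-043, with a 54 minus 18 µg difference of -0.38 ± 0.28 (SE) against 0.13 by the probe used, and it differed from control by 0.01 at 54 µg NRCWE-043, against 0.24. A second Hspe1 probe correlated at 0.900, and another, above background on 2 arrays, at -0.402. Between NRCWE-043 and NRCWE-045 over both doses that last probe differed by -0.11, against 0.07 by the probe used.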

How the data were processed

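Lung RNA of 34 samples, each called a lung here, was read on two-colour Agilent arrays, Cy5 for lung and Cy3 for a universal RNA of 11 mouse cell lines. Per the file headers, the authors extracted spots with Agilent Feature Extraction 11.0.1.1, and the deposited scanner files give median pixel intensity of each spot and of its background. The deposited files also hold a log10 ratio of the processed signals, per the file headers, which was not used, and 0 or 1 flags (a score) for spots above background or irregular. The deposited series table holds log2 ratios, whose array medians ran from -0.0414 to -0.00406 and which correlated at 0.994 to 0.998 with the ratios used here; how that table was made is not given in the sources.

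Background was removed with limma's normexp (offset 50, limma 3.58.1, statmod 1.5.0, R 4.3.3), and log2 ratios were normalized by loess within arrays, with control and irregular spots (0.398% to 0.631%) at weight 0. Means were planned but the files give medians. Of 55681 probes, 27235 matched a RefSeq gene. Repeated spots were averaged and each gene took its probe with the highest mean Cy5 intensity. Genes and unnamed transcripts well above background on at least 3 arrays were kept, 29316 of 37074. One limma fit of 7 group means (lmFit, eBayes) gave all tests, with p-values adjusted over all 29316. The number of arrays limits precision. The labels give each array its own sample number but do not state that each came from a different mouse, and p-values then measure the spread between these samples. Lungs are numbered by order of deposition.

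Members and lists were chosen with earlier results of these data known. All members are named. From other lists, the text names genes among the 4 smallest p-values of the comparison, and Hsf1, Hsp90ab1, Cirbp and Hspa5. For likeness it names the 8 genes with the highest r. The fit was tested on simulated data. Alternatives are given in the closing section. Dyes were never swapped, so a probe's dye bias is part of each ratio and cancels in differences between lungs.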

Additional observations from a re-analysis of the deposited data

How the results depend on the processing

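The count of members called stayed at 0 in all 18 comparisons under every alternative run, except for NRCWE-043 against NRCWE-045 over both doses. There it was 1 with slide as a fixed block, 1 with slide as a random block, and 1 without lungs 4 and 5 of the 54 µg NRCWE-043 group together, an alternative chosen after seeing the data. Leaving out 1 lung at a time it ran from 0 to 3, the 3 coming without lung 5 of that group. The alternatives were the scanner software's processed signals, the Cy5 channel alone, quantile normalization of average signal after loess, array weights, the deposited series table, no filter or a stricter filter on dim probes, the mean of all probes, only the groups compared, and slide as a block. The SD between replicates of the members' median, 0.245, exceeded the size of the reported median in 14 of the 18 comparisons, so that a move smaller than it says little. Of 408 recomputed medians, 85 moved by over 1.5 times, 9 of them to the other sign. No median moved that far for NRCWE-043 against NRCWE-045 over both doses (0.27 to 0.43) or at 54 µg (0.39 to 0.66), for NRCWE-043 against NRCWE-044 over both doses (0.18 to 0.31), or for 54 µg NRCWE-045 against control (-0.40 to -0.20). Of 3672 recomputed differences of single members, 191 changed sign, none with a reported difference above 0.196 in size. Single lungs could not be paired by label, because the labels give them no replicate numbers shared between groups. Slides, which groups do share, served as a block and gave the values within slides. Groups of 3 to 6 lungs limit what could be detected: for Hspa1a against control the 95% interval at 54 µg NRCWE-043 was -0.67 to 0.68.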
